A study of Mus musculus with 2 samples.

Results

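The genes described here encode 10 channels or channel-like membrane proteins linked to the sensing of mechanical force: Piezo1, Piezo2, Tmem63a, Tmem63b, Tmem63c, Tmc3, Tmem150c, Asic1, Asic2 and Asic3. They were found by symbol among the 32286 genes counted, each symbol once, and all 10 were detected. Nuclei came from vagus nerve ganglia of C57BL/6J mice of the Rosa26-floxed-STOP-Cas9-eGFP genotype on a standard chow diet, which had received AAVrg-Cre, a retrogradely spreading virus that carries Cre recombinase, in the liver 4 weeks earlier. The 14 ganglia of 7 females were pooled into 1 library and the 16 ganglia of 8 males into another. Sex and library therefore cannot be separated, no test between the sexes was possible, and no p-value is given. By the study's methods the mice were bought as young adults, and the labels used here give no age.

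Vagal afferents report stretch of the airways, gut, heart and great vessels to the brainstem, and their cell bodies lie in the nodose ganglion, which derives from placodes, and the jugular ganglion, which derives from the neural crest. PIEZO channels open directly when the membrane is stretched, TMEM63 proteins are related to plant osmosensitive channels, TMC proteins include the transduction channels of hair cells, and ASIC channels are opened by protons and have been linked to touch and stretch in sensory neurons. Nuclear RNA was counted with introns, and levels are given as UMIs (unique molecular identifiers, which count captured RNA molecules) of a gene per 10000 UMIs of the nuclei named, with exact Poisson 95% intervals that cover counting error only.

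The matrix joins both libraries without naming their sex, which was assigned from the nucleus number that the study's text gives for each sex. The library of 3791 nuclei was taken as female and that of 4923 nuclei as male. Xist, expressed from the inactive X chromosome, stood at 7.70 UMIs per 10000 in the former and 0.00254 in the latter. The nuclei were clustered without the 10 channel genes, but genes on the other strand of some of them were not left out. Each class below is named for its markers and is to be read as "like" that cell type. Nodose-type nuclei numbered 363 for females and 914 for males, and jugular-type nuclei 192 and 377. A further neuron cluster of 265 nuclei, called cluster 12, is given apart. It had too few nodose and too few jugular markers for a subtype name. P2rx2, a nodose marker that encodes an ATP-gated channel subunit, stood at 1.04 in nodose-type and 0.106 in jugular-type nuclei, and Prdm12, a jugular marker, at 0.117 and 1.46. Names rested on part of each marker list. Of the nodose list, 9 of 10 markers were at least 1.5-fold up in cluster 2 and 4 of 10 in cluster 10. Of the jugular list, 5 of 9 were up in cluster 13, 6 of 9 in cluster 15 and 4 of 9 in cluster 19. Osmr, on the jugular list, was among the leading genes of nodose-type sub-cluster 6, described later. Median depth was 6393 UMIs in nodose-type and 9809 in jugular-type nuclei but 1775 to 3434 in the non-neuronal classes. Slc17a6, a neuronal glutamate transporter gene, stood at 1.81 in nodose-type nuclei and still at 0.493 to 1.02 in those classes. The part of RNA free in the suspension in any level was not tested. Nuclei like cerebellar granule cells, called granule-type (477 female, 23 male), and sympathetic-type nuclei (9 female, 147 male) came mostly from 1 library. Pituitary-type nuclei (66 female, 92 male) were counted among the non-neuronal classes. Cerebellum and pituitary are not parts of the vagus nerve ganglia, and how such nuclei came into the libraries was not tested. In addition, 8 barcode sequences occurred in both libraries.

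**Figure D1:**
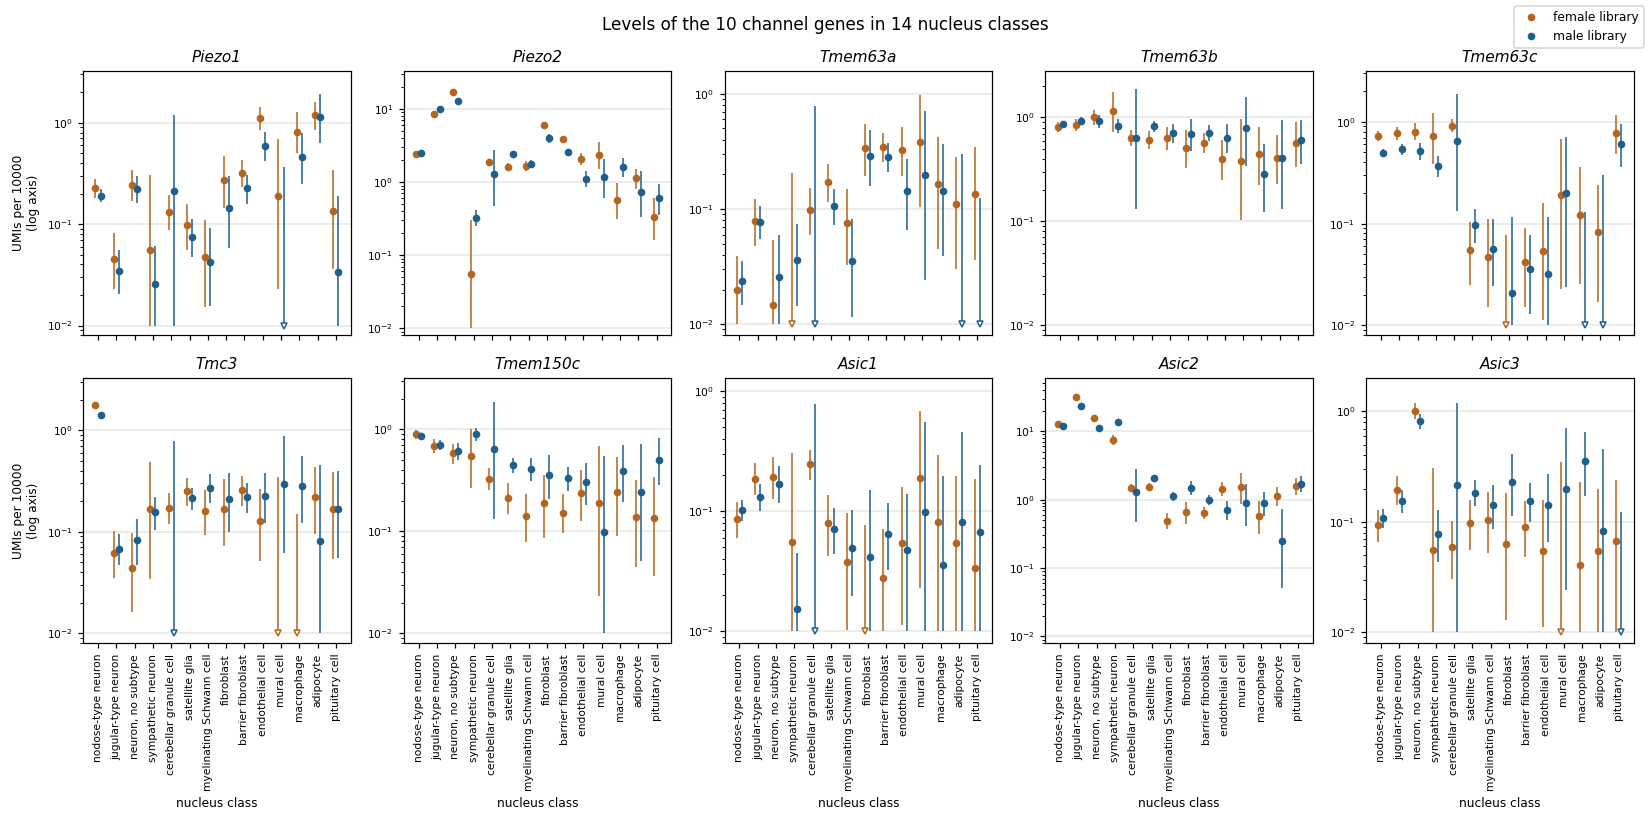
Level of each gene (UMIs per 10000, log axis) in 14 nucleus classes, as 1 point for each library with its exact Poisson 95% interval, cut at 0.01, and open triangles where no UMI was counted. Tmc3 stands out in nodose-type nuclei, Asic3 in the neuron cluster without a subtype name, Asic2 in all neuron classes other than granule-type, and Piezo1 in adipocyte, endothelial and macrophage nuclei.

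Piezo2, the channel of touch, proprioception and lung stretch, varied strongly among neurons. It stood at 17.00 in female and 13.03 in male nuclei in cluster 12, at 8.49 in female and 9.91 in male nuclei in jugular-type nuclei and at 2.46 in female and 2.52 in male nuclei in nodose-type nuclei. The libraries did not overlap between these 3 classes. Among all clusters, cluster 19 had the highest level and cluster 12 came next. Of the jugular-type clusters, cluster 19, led by Cdh9 and Tafa4, stood at 24.4 and 25.7 in the female and male library, cluster 15, led by Grik1 and marked by Mrgprd and Lpar3, at 11.7 and 10.4 and cluster 13 at 1.02 and 1.49, the last led by the cold channel gene Trpm8. Cluster 19 over cluster 13 gave a log2 ratio of 4.58 (4.30 to 4.87) for females and 4.12 (3.94 to 4.29) for males. The nodose-type clusters were less far apart, with 6.77 and 7.20 in cluster 10 against 0.763 and 0.600 in cluster 2, a log2 ratio of 3.15 (2.93 to 3.37) and 3.59 (3.43 to 3.75). The class value of nodose-type nuclei thus averages over clusters 10 and 2. Cluster 2 lay below macrophage nuclei in the male library (1.60) but above them in the female library (0.572).

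Outside neurons, Piezo2 stood at 6.02 in female and 4.01 in male nuclei in fibroblast nuclei, above nodose-type nuclei in both libraries. In barrier fibroblast nuclei the 2 clusters differed. Cluster 5, with Cldn1 and Itgb4 among its leading genes, held 7.29 and 4.58, and cluster 7, led by the transporter gene Slc6a20a, held 0.684 and 0.973, a log2 ratio of 3.41 (2.99 to 3.86) and 2.23 (1.90 to 2.58). An unnamed cluster led by Slc47a1, with Col25a1 also among its leading genes, held 8.89 and 4.91. Macrophage nuclei, of like depth, held 0.572 in female and 1.60 in male nuclei. Satellite glia, granule-type, mural, myelinating Schwann, endothelial and macrophage nuclei, between 1.12 and 2.15 with the libraries summed, did not differ from their neighbours in that order beyond the libraries and the counting intervals. In nuclei thinned to 1000 UMIs, a UMI of Piezo2 was found in 57.7% (95% interval 51.5 to 63.8) of nuclei of cluster 12, 39.02% (95% interval 34.99 to 43.2) of jugular-type, 31.8% (95% interval 27.5 to 36.3) of fibroblast, 14.7% (95% interval 12.8 to 16.8) of nodose-type and 9.62% (95% interval 6.32 to 13.9) of macrophage nuclei. Before thinning these shares were 83.8%, 67.7%, 47.5%, 36.1% and 16.5%.

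Piezo1, the stretch channel of blood vessels, red cells and many lining cells, had another distribution. It stood at 1.18 in female and 1.15 in male nuclei in adipocyte nuclei, at 1.11 in female and 0.590 in male nuclei in endothelial nuclei and at 0.817 in female and 0.462 in male nuclei in macrophage nuclei, and these were the 3 highest classes. Adipocyte nuclei did not differ from endothelial nuclei beyond the counting intervals (0.888 to 1.52 against 0.675 to 1.01 with the libraries summed), although the libraries did not overlap. Among neurons it stood at 0.244 in female and 0.221 in male nuclei in cluster 12, 0.226 in female and 0.191 in male nuclei in nodose-type nuclei and 0.0457 in female and 0.0348 in male nuclei in jugular-type nuclei. The nodose-type level did not differ from that of fibroblast nuclei (0.209) beyond the libraries and the counting intervals. Of the nodose-type clusters, Piezo1 stood at 0.284 and 0.242 in cluster 2 and 0.0784 and 0.0664 in cluster 10, the opposite order to that of Piezo2. The order did not hold among the nodose-type sub-clusters described later, where sub-cluster 5 was low in both, with 0.0193 for Piezo1 and 0.232 for Piezo2, and sub-cluster 3 held both, with 0.218 and 2.37. Cluster 10 held 27 UMIs of Piezo1 in all.

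**Figure D2:**
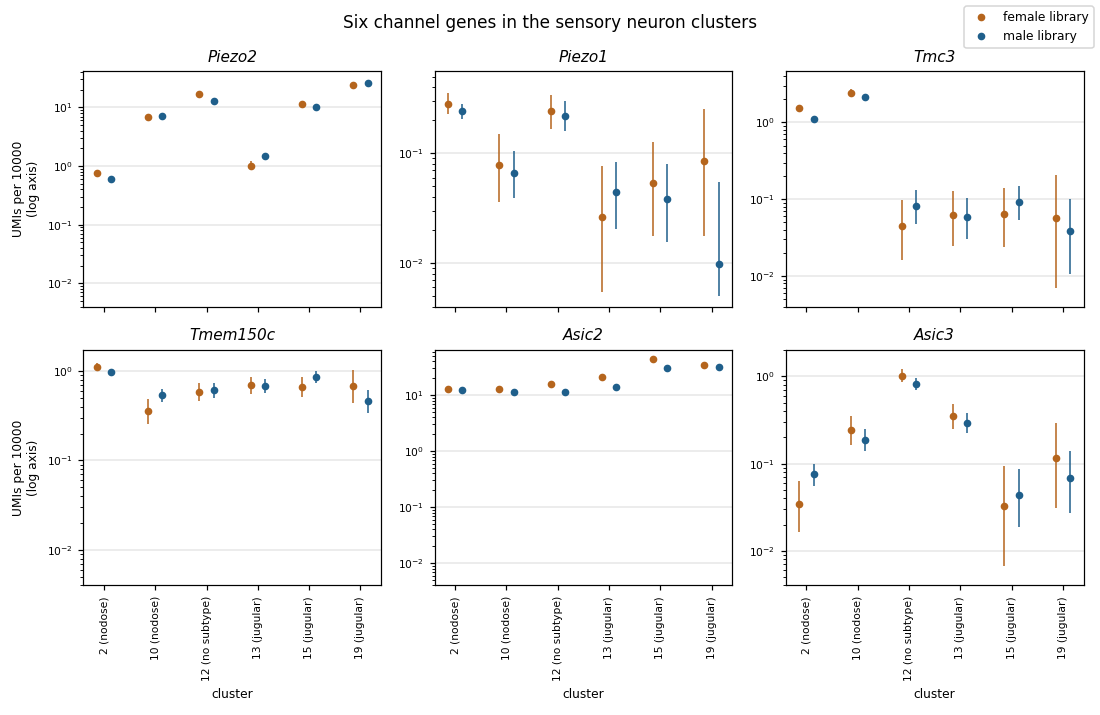
Level of 6 genes (UMIs per 10000, log axis) in the 6 sensory neuron clusters, as 1 point for each library with its exact Poisson 95% interval, cut at 0.005. Piezo2 ranges from 0.600 in cluster 2 to 25.7 in cluster 19 of the male library, while Tmc3 is above 1 only in the nodose-type clusters 2 and 10.

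Tmc3, a little studied relative of the hair cell channels TMC1 and TMC2, was the member with the highest contrast between the ganglion types. It stood at 1.78 in female and 1.41 in male nuclei in nodose-type nuclei and at 0.0623 in female and 0.0676 in male nuclei in jugular-type nuclei. Every other class lay between 0.0667 and 0.236 with the libraries summed, and the 12 neighbouring pairs below nodose-type nuclei overlapped in the libraries, the counting intervals or both. The nodose-type over jugular-type log2 ratio was 4.84 (95% interval 4.10 to 5.68) for females and 4.38 (95% interval 3.89 to 4.93) for males. At 1000 UMIs a nucleus, 11.4% (95% interval 9.75 to 13.3) of nodose-type nuclei had a UMI of Tmc3, against 0.176% (95% interval 0.00445 to 0.975) of jugular-type and 1.92% (95% interval 0.627 to 4.43) of macrophage nuclei. Before thinning the shares were 40.4%, 7.21% and 3.07%. Gm16638, an antisense gene on the other strand of the same stretch, stood at 1.91 in nodose-type and 0.233 in jugular-type nuclei. It was not left out of the clustering and was among the leading genes of cluster 10. The classes are thus not fully independent of this stretch.

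Tmc3 and Piezo1 were the members called higher in nodose-type nuclei, and the 250 bases before their start sites are shown because they differ in CG dinucleotides, in capitals. The sequences are from RefSeq on GRCm38.p6, where 9 of the 10 members had a window. The Tmc3 window is chr7:83584681-83584930 on the + strand and holds 2 CG. The Piezo1 window is chr8:122551330-122551579 on the - strand and holds 26 CG. The median over 32851 windows was 6, and 81.2% and 9.59% of windows held at least as many as Tmc3 and Piezo1. CG reads the same on both strands, and the count is a description of these bases.
Tmc3: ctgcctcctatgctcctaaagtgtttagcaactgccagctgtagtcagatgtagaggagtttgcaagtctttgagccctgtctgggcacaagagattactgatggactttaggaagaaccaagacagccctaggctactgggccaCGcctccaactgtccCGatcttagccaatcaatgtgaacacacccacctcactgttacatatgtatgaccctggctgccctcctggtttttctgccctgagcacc
Piezo1: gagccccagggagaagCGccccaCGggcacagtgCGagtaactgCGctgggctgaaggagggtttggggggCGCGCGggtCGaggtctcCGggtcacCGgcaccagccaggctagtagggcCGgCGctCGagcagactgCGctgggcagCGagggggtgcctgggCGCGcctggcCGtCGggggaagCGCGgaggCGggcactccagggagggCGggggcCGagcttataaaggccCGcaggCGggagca

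Of the acid-sensing channels, Asic2 was counted most, with 45551 UMIs from a gene of 1088 kb. It stood at 32.2 in female and 23.7 in male nuclei in jugular-type nuclei, 15.7 in female and 11.2 in male nuclei in cluster 12, 12.9 in female and 12.03 in male nuclei in nodose-type nuclei and 7.47 in female and 13.6 in male nuclei in sympathetic-type nuclei. As a class, the jugular-type level lay above the others in both libraries, while the libraries of the other 3 overlapped. It averages over cluster 15 (44.9 and 30.4 in the female and male library), cluster 19 (35.0 and 31.4) and cluster 13 (21.0 and 13.7). Some nodose-type nuclei lay above the jugular-type class value, with 33.6 and 34.6 in sub-cluster 5 and 46.1 and 34.5 in sub-cluster 11, described later. Sub-cluster 11 held only 4 female and 19 male nuclei. All other classes lay between 0.741 and 1.91 with the libraries summed. Asic3, linked to muscle and skin afferents, stood at 1.02 in female and 0.812 in male nuclei in cluster 12 and below that in every other class in both libraries, with 0.195 in female and 0.154 in male nuclei in jugular-type, 0.0933 in female and 0.108 in male nuclei in nodose-type and 0.0408 in female and 0.355 in male nuclei in macrophage nuclei. Cluster 12 was led by Gm10754, Tafa1 and Grm8, and held 296 of the 798 UMIs of Asic3. Ntrk3, the neurotrophin receptor gene of proprioceptors and some touch neurons, stood at 7.65 in cluster 12, 2.60 in jugular-type and 1.06 in nodose-type nuclei. High Ntrk3 was not particular to cluster 12. Of the nodose-type sub-clusters described later, sub-cluster 11 held Ntrk3 at 9.10 and Asic3 at 0.123, and sub-cluster 8 held 4.39 and 0.429. Asic1, the main brain form, was scarce. It stood at 0.187 in female and 0.131 in male nuclei in jugular-type nuclei and 0.0860 in female and 0.102 in male nuclei in nodose-type nuclei. Asic1 rested on 463 UMIs in all. The jugular-type values of Asic3 and Asic1 average over unlike clusters. With the libraries summed, Asic3 stood at 0.316 in cluster 13, 0.0799 in cluster 19 and 0.0401 in cluster 15. Asic1 stood at 0.243, 0.196 and 0.0182 in the same order.

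The TMEM63 genes each had their own pattern. Tmem63c stood at 0.725 in female and 0.490 in male nuclei in nodose-type, 0.776 in female and 0.537 in male nuclei in jugular-type and 0.908 in granule-type nuclei, and between 0.0105 and 0.194 in the non-neuronal classes other than pituitary-type nuclei, at 0.687. Tmem63a ran the other way. It stood at 0.337 in female and 0.291 in male nuclei in fibroblast and 0.347 in female and 0.284 in male nuclei in barrier fibroblast nuclei, against 0.0197 in female and 0.0236 in male nuclei in nodose-type nuclei. Tmem63b was found in every class, from 0.361 in macrophage nuclei to 0.955 in cluster 12. No neighbours in that order differed beyond the libraries and the counting intervals, but classes further apart were not compared in this way. Its sensory neuron over non-neuronal log2 ratio was 0.57 (0.37 to 0.77) for females and 0.29 (0.15 to 0.44) for males. Tmem150c, also called tentonin 3 and described in baroreceptor endings of the nodose ganglion, stood at 0.897 in female and 0.858 in male nuclei in nodose-type nuclei and 0.685 in female and 0.705 in male nuclei in jugular-type nuclei, and at 0.145 to 0.365 in the non-neuronal classes.

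A gene was called when its level was at least 2-fold apart in the same direction in both libraries. Between nodose-type plus jugular-type nuclei (555 female, 1291 male) and nuclei of the named non-neuronal classes (2318 female, 2858 male), 4 of 10 members were called higher in sensory neurons, where 10.9% of the 18645 genes with at least 20 UMIs were. These were Asic2, Tmem63c, Tmc3 and Tmem150c, with log2 ratios in the female and male library of 4.31 and 3.46, 3.09 and 2.62, 2.52 and 2.08, and 2.19 and 1.04. The male interval of Tmem150c, 0.86 to 1.22, included the 2-fold limit. The call of Tmc3 rested on nodose-type nuclei. With the libraries summed, Tmc3 stood at 0.0658 in jugular-type and 0.213 in non-neuronal nuclei. Tmem63a alone was called higher in non-neuronal nuclei, where 17.2% of genes were, with -2.40 (95% interval -3.06 to -1.80) and -1.75 (95% interval -2.22 to -1.28). Piezo2 was just outside, at 0.95 for females and 1.20 for males. The median log2 ratio was 1.07 over the members and -0.24 over all genes tested.

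Between nodose-type and jugular-type nuclei, 2 members were called higher in nodose-type nuclei, where 7.26% of 16794 genes were, and 2 higher in jugular-type nuclei, where 5.17% were. The first were Tmc3 and Piezo1, the latter at 2.31 (95% interval 1.40 to 3.36) and 2.45 (95% interval 1.73 to 3.27). With cluster 12 counted among jugular-type nuclei, an alternative chosen after seeing the data, the log2 ratio of Piezo1 was 1.04 with the libraries summed and it was no longer called. The second were Piezo2, at -1.79 (95% interval -1.90 to -1.68) and -1.98 (95% interval -2.05 to -1.91), and Tmem63a, at -2.00 and -1.72 on 87 UMIs. The jugular-type level of Tmem63a rested mostly on cluster 15, at 0.164 on 45 UMIs with the libraries summed. It stood at 0.0347 in cluster 13 and 0.00726 in cluster 19, the latter below nodose-type nuclei (0.0224). Asic2 lay near the limit, at -1.32 and -0.98. The median was -0.38 over the members and 0.07 over all genes tested. Under the Louvain clustering, the setting first planned, Piezo1 turned to -0.20 and Tmem63a was no longer called. That clustering placed 391 of the 1277 nodose-type nuclei with jugular-type nuclei, 281 with sympathetic-type nuclei and 301 in unnamed clusters, and 277 in its own nodose-type class. It also placed 240 of the 265 nuclei of cluster 12 with jugular-type nuclei. In the same clustering Tmc3 and Tmem150c lost the call between neurons and non-neuronal nuclei and Piezo2 gained it.

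**Figure D3:**
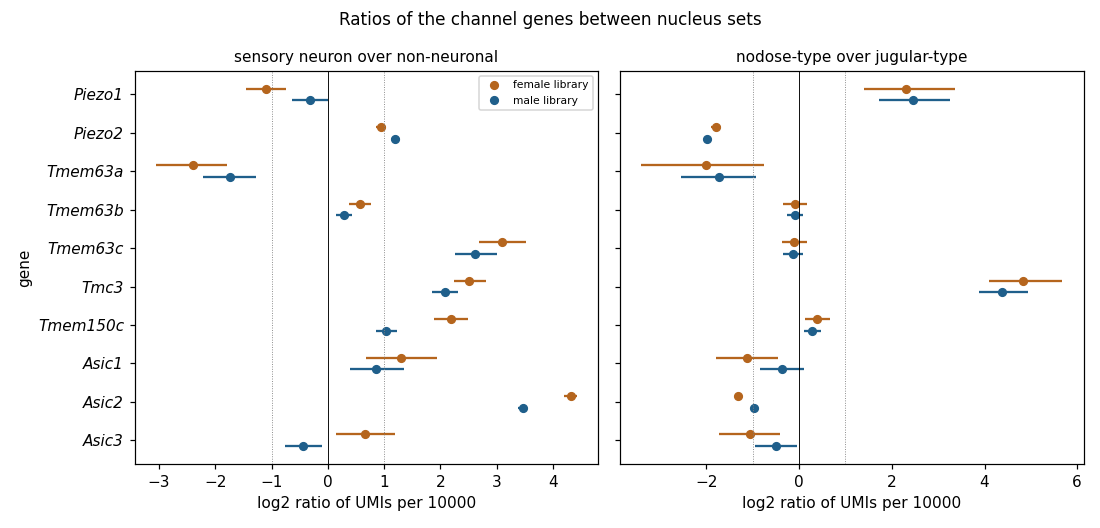
Log2 ratio of levels between sensory neuron and non-neuronal nuclei (left) and between nodose-type and jugular-type nuclei (right) for each gene, as 1 point for each library with its exact conditional binomial 95% interval; dotted lines mark 2-fold. Tmc3 is farthest to the right among nodose-type over jugular-type ratios, at 4.84 and 4.38, and Piezo2 is at -1.79 and -1.98.

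Nodose-type nuclei, clustered again without the members, fell into 11 sub-clusters in which the channel genes came in different combinations. Sub-cluster 8 (14 female and 32 male nuclei, with Dcc, Pappa2 and Grm8 among its leading genes) had the highest Piezo2, 13.6 and 14.8 in the female and male library. Sub-cluster 2 (44 and 147 nuclei, led by Grm5 and Rnf220) had Piezo2 at 7.61 and 7.53 together with the highest Tmc3, 4.77 and 3.46, and Asic2 at 4.83 and 6.01. Sub-cluster 5 (40 and 107 nuclei, led by Zbbx and Moxd1) had Tmc3 at 3.15 and 3.21 and Asic2 at 33.6 and 34.6, but Piezo2 at 0.128 and 0.277. Sub-cluster 4 (53 and 128 nuclei, with Cysltr2 and Trpa1 among its leading genes) had Piezo2 at 0.282 and 0.484 and Tmc3 at 0.240 and 0.191, and Piezo1 at 0.324 and 0.556. Tmc3 and Piezo2 were thus high together in sub-cluster 2 and apart in sub-cluster 5, in both libraries. Sub-cluster 10 (14 and 18 nuclei) also held Tmc3 at 2.57 and 2.21. Sub-cluster 11 (only 4 and 19 nuclei, led by Tox and Npas3) held Piezo2 at 7.62 and 5.47. In sub-cluster 8 Tmc3 stood at 2.70 in the female but 0.754 in the male library. Sub-cluster 3 carried satellite glia genes such as Cdh19 among its leading genes, and the part of joined neuron and glia nuclei in its levels was not tested. Scn10a, the sodium channel gene of nociceptors, stood at 0.736 in sub-cluster 2 and 0.540 in sub-cluster 8, and at 7.08 in sub-cluster 4. Low Piezo2 with higher Scn10a was also seen in sub-clusters 1, 5, 6 and 7, with Scn10a at 6.00, 4.15, 6.25 and 5.35. Sub-clusters 9 and 10 were low in both genes, with Piezo2 at 0.547 and 0.641 and Scn10a at 0.716 and 1.07. Sub-cluster 3 held Piezo2 at 2.37 and Scn10a at 3.11, and sub-cluster 11 held 6.23 and 1.31.

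**Figure D4:**
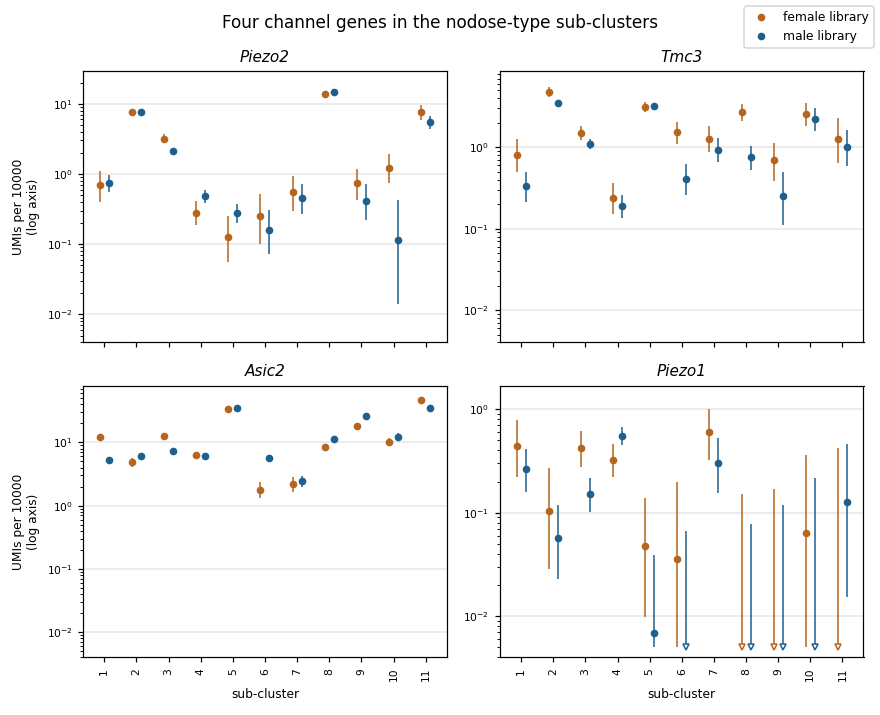
Level of 4 genes (UMIs per 10000, log axis) in the 11 sub-clusters of nodose-type nuclei, as 1 point for each library with its exact Poisson 95% interval, cut at 0.005. Sub-clusters 2, 8 and 11 are high in Piezo2 in both libraries. Sub-clusters 2, 5 and 10 are high in Tmc3 in both libraries, and sub-cluster 8 in the female library only.

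On mm10 with GENCODE M21, Tmc3 lies on chromosome 7, 83584927 to 83625614 (+ strand), Piezo1 on chromosome 8, 122481698 to 122551329 (- strand), Asic2 on chromosome 11, 80880169 to 81968457 (- strand) and Asic3 on chromosome 5, 24413392 to 24417835 (+ strand). Since introns were counted, levels were also set per length of gene, a scale that raises short genes. How far the counts depend on gene length was not tested. Per 100 kb of gene and 10000 UMIs, Tmc3 stood at 3.74, Tmem63b at 3.17, Asic3 at 2.33 and Asic2 at 1.13 in nodose-type nuclei. Tmem150c followed at 1.06, Tmem63c at 0.817 and Piezo2 at 0.663. In jugular-type nuclei Asic3 stood at 3.77, Tmem63b at 3.37, Piezo2 at 2.50, Asic2 at 2.43 and Tmc3 at 0.162. Tmem63c, Tmem150c, Asic1 and Tmem63a lay between Asic2 and Tmc3 there. On this scale Asic2, whose gene spans 1088 kb, was not the highest member. Asic3 spans 4.44 kb, and its value rests on 139 and 122 UMIs in the classes named. Of the 122 in jugular-type nuclei, 100 lay in cluster 13.

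Between the libraries, 109 of 140 combinations of member and class had a male over female interval that included no difference, 17 were higher in the male and 14 in the female library. Over all 270270 combinations of class and gene with at least 20 UMIs, 6.83% were higher in the male and 5.59% in the female library. These genes had a median of 624 UMIs and the members one of 2171, and intervals narrow with more UMIs, so the shares are not like for like. Tmem63c was lower in the male library in all 3 sensory neuron classes, with log2 ratios of -0.57 (-0.78 to -0.35), -0.53 (-0.81 to -0.25) and -0.63 (-1.04 to -0.23). Piezo2 was lower in the male library in fibroblast nuclei, -0.58 (-0.86 to -0.32), and barrier fibroblast nuclei, -0.61 (-0.79 to -0.43), and higher in satellite glia, 0.58 (0.37 to 0.78). The satellite glia clusters differed, with 1.14 (0.85 to 1.45) in cluster 3 and -0.24 (-0.56 to 0.08) in cluster 4. Tmem150c was higher in the male library in satellite glia, 1.05 (0.51 to 1.63), and in myelinating Schwann nuclei, 1.53 (0.69 to 2.46). By the interval, Asic2 was higher in 5 classes in the male library and in 5 in the female library. It was lower in the male library in nodose-type, -0.10, jugular-type, -0.44, and neuron nuclei without a subtype name, -0.48. Piezo2 was higher in 4 classes in each library. It was lower in the male library in neuron nuclei without a subtype name, -0.38, and higher in jugular-type nuclei, 0.22. In nodose-type nuclei its interval included no difference, at 0.03. With 1 library a sex these differences cannot be separated from the library, and the share of sensory neurons among all nuclei also differed, since sensory neuron nuclei made up 555 of 3791 female and 1291 of 4923 male nuclei.

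Of 36 related genes, 31 had enough UMIs, and 8 were called higher and 6 lower in sensory neuron than in non-neuronal nuclei, where 10.9% and 17.2% of all genes tested were. The share called lower was near that of all genes. Their median log2 ratio was 0.05. Among relatives of the members, Tmc1, Tmc2 and the sodium channel subunit gene Scnn1a were called higher, at 1.84 and 1.41, 1.86 and 2.86 and 2.79 and 1.38 in the female and male library, on 98 to 151 UMIs each. Tmc6 and Asic4 were called lower, at -1.02 and -1.02 and -3.24 and -1.67. Asic4 rested on 52 UMIs in all and stood at 0.369 in pituitary-type nuclei, against 0.00580 in sensory neuron nuclei. No UMI of Asic4 was counted in fibroblast, barrier fibroblast, endothelial, mural, macrophage or adipocyte nuclei. Among other channels, the TRPC genes Trpc1, Trpc5 and Trpc6 were called higher, at 1.06 and 1.29, 1.53 and 1.45 and 1.77 and 1.40, and so was the potassium channel gene Kcnk10, at 2.73 and 2.35. Trpc5 stood at 0.276 in jugular-type but 0.0127 in nodose-type nuclei, and at 0.302 in pituitary-type nuclei. Trpc6 stood at 1.84 in mural nuclei, above nodose-type (0.283) and jugular-type nuclei (0.534). Trpv4, an osmotically gated channel, and Pkd2 were called lower, at -3.65 and -3.03 and -1.13 and -1.12, Trpv4 on 105 UMIs in all. Among partners, Mdfic, which encodes an auxiliary subunit of PIEZO channels, and its relative Mdfi were called lower, at -2.43 and -2.10 and -3.98 and -3.71. Mdfi rested on 52 UMIs in all, with a level of only 0.00145 in sensory neuron nuclei. Within neurons, Mdfic stood higher in nodose-type than in jugular-type nuclei, at 2.62 and 2.28.

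The genes whose levels ran most like those of each member over 26 sums, 13 classes in 2 libraries, were picked among 13412 genes by Pearson's r of log2(level + 0.05), as a description over points that share libraries and free RNA. They were B4galt1 (0.84), Tbc1d4 (0.84), Stk38 (0.82) for Piezo1, and Gm42701 (0.88), Gm9947 (0.85), Magi3 (0.85) for Piezo2. For Tmc3 they were Slc5a7 (0.84), Hpcal4 (0.83), Fbn2 (0.78). For Asic2 they were Gm11418 (0.96), 5530401A14Rik (0.95), Enox1 (0.94), of which the first and second lie on the other strand within the Asic2 gene. For Asic1 they were Kifc2 (0.83), Aldh1l2 (0.80), Ccnjl (0.80), and for Asic3 Cpne6 (0.89), St8sia1 (0.85), Cntnap3 (0.75). For Tmem63a they were Pld1 (0.90), Ppic (0.87), Ltbp1 (0.86), for Tmem63b Bmerb1 (0.82), Gm38560 (0.81), Arhgap33 (0.81) and for Tmem63c Car10 (0.95), Cdh18 (0.93), Ndst3 (0.93). For Tmem150c they were Camk2a (0.91), Prkar1b (0.87), Tmem169 (0.86).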

How the data were processed

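Single-nucleus RNA was captured with a 3' 10x Genomics kit and sequenced; per the file headers and the study's methods the authors counted reads on mm10 with Cell Ranger 7.1.0, introns included, added a viral poly(A) sequence to the reference, joined the libraries after evening out mapped reads, and removed poor nuclei and possible doublets. The deposited matrix holds UMI counts of 32286 genes in 8714 nuclei, 17435300 UMIs for females and 27529730 for males. The barcode suffix gives the library, and each library was assigned its sex by the nucleus numbers in the study's text. No further nuclei were removed here and no doublet caller was run.

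Nuclei were clustered without the 10 members and sex-linked genes (2000 variable genes, 30 principal components, 15 neighbours, Leiden resolution 0.5, leidenalg 0.10.2, igraph 0.11.9, Python 3.11.15), which gave 26 clusters, named from marker lists. This clustering was first planned as the alternative to Louvain clustering (10 components, 243 neighbours). The order was exchanged, and the limits for naming were set, after clusters and member levels had been seen. Members and lists were chosen with earlier results of these data known. All 10 members were described in every class, the 3 most alike genes were named for each, and related genes were named when called, other than a gene that is not reported here. UMIs were summed per class and library, with exact Poisson intervals for sums, exact Clopper-Pearson intervals for shares and exact conditional binomial intervals for ratios (scipy 1.17.1). For shares, nuclei were also thinned at random to 1000 UMIs, leaving out the 19 below that. The calls and the ratio intervals were run on simulated Poisson counts, the model behind those intervals. That run held no spread between nuclei, mice or libraries, so it cannot show how the calls fare under such spread. Gene positions and lengths came from GENCODE M21.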

Additional observations from a re-analysis of the deposited data

Results flagged for a closer look

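Asic3 was the only member whose log2 ratio of sensory neuron over non-neuronal nuclei took opposite signs in the libraries. It was 0.67 (95% interval 0.15 to 1.20) for females and -0.44 (-0.77 to -0.10) for males, on 85 and 176 UMIs in sensory neuron nuclei. The difference between the libraries was not tested, since each sex had 1 library. Cluster 12, which had the highest Asic3, is in neither set. Its level in sensory neuron nuclei was 0.131 for females and 0.124 for males, and in non-neuronal nuclei 0.0826 and 0.167. It was higher in the male library in every non-neuronal class other than pituitary-type nuclei. Satellite glia stood at 0.0980 and 0.184 and fibroblast nuclei at 0.0631 and 0.229. Macrophage nuclei had 1 UMI of Asic3 for females and 10 for males. Over all 14 classes, the male over female interval lay above no difference in 2.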

How the results depend on the processing

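Of 9 ratios of called members, 67 of 68 values under the alternatives kept their sign. The exception was Piezo1 between nodose-type and jugular-type nuclei, at -0.2049 under Louvain clustering. Louvain clustering spreads nodose-type nuclei over jugular-type, sympathetic-type and unnamed clusters, and places 240 nuclei of cluster 12 with jugular-type nuclei. Under that clustering 2 members were at least 2-fold apart between these types, in place of 4. Members higher in non-neuronal nuclei numbered 1 to 2 when either library was left out, and 2 with non-neuronal classes weighted alike, Piezo1 being added to Tmem63a. Members apart between nodose-type and jugular-type nuclei numbered 4 to 7 when either library was left out; Asic1, Asic2 and Asic3 were added in the female library alone. Members higher in sensory neurons numbered 3 to 6 over all alternatives. Counting cluster 12 with jugular-type nuclei ended the call of Piezo1 and added Asic3. The alternatives on cluster 12, on unnamed clusters, on weighting and the exchange of clusterings were chosen after seeing the data. Shares of nodose-type nuclei moved with depth for 19 of 20 values. No paired analysis was possible because each sex had 1 library. Counts of under 200 UMIs, as for Tmem63a in sensory neurons and Asic1 in each neuron class, limit precision, and intervals cover counting error only.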
